A study of Mus musculus with 41 samples.

Results

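Among 11 mouse liver tumours profiled by RNA-seq, 3 lay apart from the other 8 on the second principal component of the expression table. They are MupHe HCC 3, IgAkMup HCC 5 and IgAkMup HCC 9, and they are called the divergent tumours here. The 3 were picked from these same expression values, so every difference from the other 8 tumours is a description and carries no test. The 11 tumours are part of 35 libraries used, of 41 columns in the table.

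The libraries hold polyA RNA of liver or liver tumour from male C57BL/6 mice. Tumours, labelled HCC for hepatocellular carcinoma, came from mice on a high-fat diet (HFD) of the genotypes MupHe (n = 4), IgAkMup (n = 4) and CD8kMup (n = 3). Non-tumour libraries were NASH liver (steatohepatitis) of MupHe and IgAkMup on HFD (n = 3 each), HFD control liver of B6 and IgAkCLM (n = 3 each), and NC liver of B6, MupHe, IgAkMup and CD8kMup (n = 3 each). The labels explain neither NC nor the genotype names, and they give no ages. As background, MUP-uPA mice make urokinase in hepatocytes from the promoter of a major urinary protein gene, and the labels do not say whether names containing Mup stand for them. Numbers such as the 5 in IgAkMup HCC 5 end the column names and were not tied to single samples. The labels do not say that libraries of a group came from separate animals. All 11 tumour columns share a tag that the labels do not explain, so no comparison among tumours crosses tags.

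Hepatocellular carcinoma arises from hepatocytes, and tumours of this kind differ in how much of the hepatocyte programme they keep. Mature hepatocytes make plasma proteins, detoxifying cytochrome P450 enzymes, fatty acids and cholesterol, and they divide these tasks between the zones of the lobule, with Wnt signalling setting the zone near the central vein. The Hippo pathway holds back YAP and TAZ, coactivators that work through TEAD transcription factors and drive growth and bile duct-like features in liver when active. Kupffer cells, the resident macrophages, line the sinusoids beside a specialised endothelium.

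Values are regularized log2 (rlog) values, so a difference of 1 is a 2-fold difference, and the sequencing depth behind them is unknown. Principal components were computed over 12337 genes with a mean of at least 3. The first component held 47.9% of the variance and the second 12.6%. On the second, the divergent tumours scored -29.1 (MupHe HCC 3), -28.4 (IgAkMup HCC 5) and -35.6 (IgAkMup HCC 9), and these scores chose them. The nearest of the other tumours were IgAkMup HCC 7 at -5.12 and IgAkMup HCC 8 at -3.71, and the highest was MupHe HCC 4 at 24.7. NASH livers scored 6.88 to 21.5 and NC livers -19.0 to -9.21. The divergent tumours also had the 3 highest scores on the first component, 61.0 to 64.9, next to 59.4 for IgAkMup HCC 8, and they lay above every other tumour on the third, 22.1 to 28.4 against -31.3 to -0.47. With tumours alone in the decomposition, the first component (37.4% of variance) held the same 3 at 41.5 to 47.8 and the 8 at -29.3 to 5.90.

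**Figure D1:**
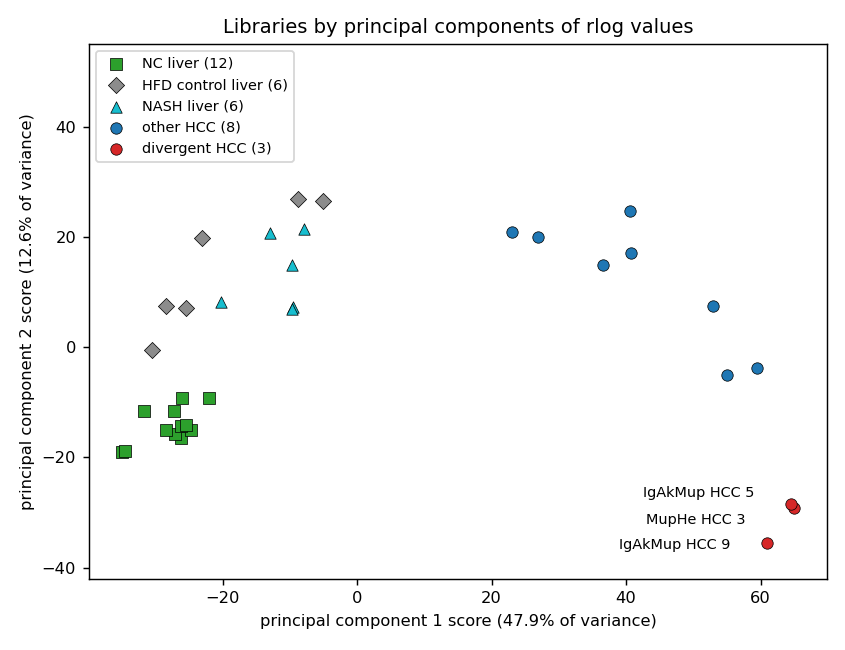
Scores of 35 libraries on the first (horizontal) and second (vertical) principal component of rlog values, unitless, with 1 point per library and the divergent tumours in red. The 3 divergent tumours lie at -28.4 or lower on the second component, while the other 8 tumours lie at -5.12 or higher.

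A gene was called higher or lower in the divergent tumours where its values in the 3 did not overlap those in the 8 and the means differed by at least 1. By this rule 169 genes were higher (1.37% of 12337) and 294 lower (2.38%). Because the same values chose the tumours, nothing is read from these shares. The median difference over all kept genes was 0.00, and 49.9% of genes had a positive difference. Differences of at least 3 were seen in 17 of the higher and 14 of the lower genes.

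Non-tumour columns carry other tags than tumour columns, so tag and tissue cannot be told apart in comparisons with them. Most called genes set the divergent tumours apart from non-tumour libraries as well. Of the 169 higher genes, 146 had their lowest divergent value above all 24 non-tumour libraries, and in 149 the median of the 8 other tumours was within 1 of the NASH median. Of the 294 lower genes, 206 had their highest divergent value below all 24 non-tumour libraries, and in 244 the median of the 8 was within 1 of the NASH median. In 24 of the lower genes the other tumours were at least 1 above NASH, and the divergent tumours lay below that raised level. In single tumours, 1723 (MupHe HCC 3), 1873 (IgAkMup HCC 5) and 1785 (IgAkMup HCC 9) genes stood at least 1 from the NASH median, against 312 to 1780 in the other 8, with IgAkMup HCC 8 the highest of them.

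Markers of liver cancer and of hepatocytes were read first, as a check of the label. In what follows the values of the divergent tumours stand in the order MupHe HCC 3, IgAkMup HCC 5 and IgAkMup HCC 9, and those of the other 8 as lowest, median and highest. Spink1, a secreted trypsin inhibitor raised in liver cancer, read 10.34, 10.28 and 10.51 in the divergent tumours against 5.55, 7.31 and 9.32 in the others. Gpc3, an oncofetal heparan sulfate proteoglycan, read 10.18, 10.11 and 10.97 against 3.60, 5.78 and 11.27, and Afp, the fetal counterpart of albumin, 8.36, 8.40 and 7.98 against 3.76, 5.35 and 9.85. Spink1 did not overlap between the groups, whereas 1 of the 8, IgAkMup HCC 7, had more Gpc3 and Afp than any divergent tumour. Apela, which encodes a peptide hormone of early development, read 9.18, 7.94 and 8.62 against 6.77 to 8.79, above its NASH range of 3.01 to 3.66 in every tumour. H19, an imprinted fetal RNA, was uneven, at 6.92, 9.94 and 6.42 against 7.31, 11.04 and 14.56. The hepatocyte regulator Hnf4a (12.29, 11.93 and 12.26 against 11.99 to 12.42) and Alb, encoding albumin (19.30, 19.65 and 19.69 against 18.24 to 20.14), lay within the range of the other tumours. Igf2, an imprinted fetal growth factor gene, read 5.71, 5.95 and 3.24 against 3.14, 5.30 and 9.63. The markers thus differed in direction. Of 20 kept oncofetal and tumour marker genes, 10 had a positive difference, 2 were called higher and 2 lower, and the median was 0.01. Over all kept genes, the shares called were 1.37% higher and 2.38% lower.

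The largest positive difference belonged to Vgll3, which encodes a vestigial-like cofactor of TEAD factors and lies on the plus strand at chr16:65815189-65866368 (GRCm38.p6). It read 9.82, 8.10 and 8.96 in the divergent tumours against 2.50, 2.82 and 3.23 in the others, a difference of means of 6.13. All 8 were low, and the 3 stood far above them. Myot, encoding the muscle Z-disc protein myotilin, read 8.85, 6.99 and 8.02 against 2.28, 3.49 and 4.97. Fam174b, a membrane protein gene at chr7:73740307-73776919, read 9.95, 9.94 and 9.84 against 4.32, 5.40 and 5.87, nearly the same in all 3. Peg3, an imprinted zinc-finger gene at chr7:6703892-6730462, read 8.46, 9.04 and 9.56 against 3.60, 4.40 and 6.05. Klhl13, a substrate adaptor of a cullin ubiquitin ligase at chrX:23219271-23365161, read 11.49, 11.55 and 11.98 against 7.05, 7.49 and 8.69.

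Other genes with large positive differences had varied roles. Steap2, a metalloreductase, read 9.09, 9.26 and 9.26 against 4.40 to 6.69, and Cadm4, a cell adhesion molecule, 8.52, 8.21 and 8.52 against 3.72 to 4.78. Enah, which extends actin filaments, read 8.47, 8.15 and 7.88 against 3.09 to 5.63. The groups were separated by more than 2 log2 units in each of these. Smaller differences, from 3.04 to 3.22, were seen for the small heat shock protein gene Cryab, the exchange factor gene Fgd3, Nxpe3, the matrix gene Efemp1 and the endocytic adaptor gene Dab2. Of these, Dab2 read 10.02, 10.51 and 9.87 against 6.76 to 7.69. A pair of genes named after their values were seen missed the call by overlap in spite of large differences. Bex1 read 6.20, 9.53 and 7.87 against 1.98, 2.61 and 6.94, and Ggt1, encoding gamma-glutamyl transferase, 6.21, 9.07 and 9.11 against 2.53, 3.03 and 6.22.

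**Figure D2:**
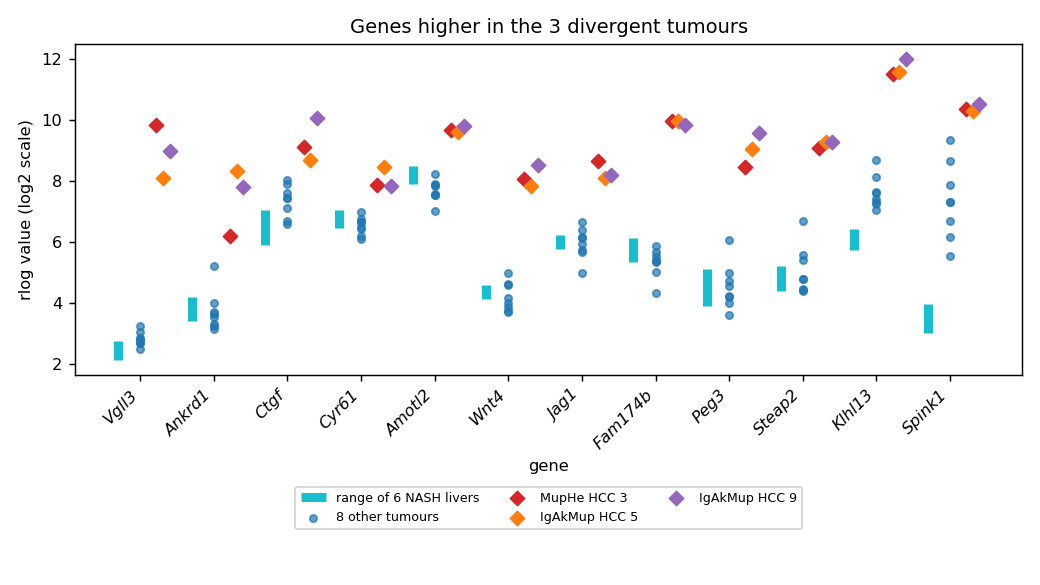
rlog values (log2 scale, vertical) of 12 genes in the 3 divergent tumours (diamonds), the 8 other tumours (blue points) and the range of 6 NASH livers (bars). For Vgll3 the diamonds lie at 8.10 to 9.82 and the other tumours at 2.50 to 3.23.

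Of 13 kept genes on a list of YAP and TEAD targets and partners, 5 were called higher and 0 lower. The shares over all kept genes were 1.37% and 2.38%. The median difference of the list was 0.59. The mean level of the list was 7.77, 7.99 and 7.92 in the divergent tumours and 6.63 to 7.25 in the others, without overlap. Ankrd1, encoding a muscle stress ankyrin protein and a classic YAP target, read 6.19, 8.31 and 7.79 against 3.16, 3.59 and 5.22. Ctgf, a matricellular growth factor gene, read 9.09, 8.68 and 10.07 against 6.60, 7.44 and 8.03. Its relative Cyr61 read 7.85, 8.44 and 7.83 against 6.09, 6.56 and 6.99. Amotl2, an angiomotin that binds YAP, read 9.66, 9.59 and 9.78 against 7.00, 7.71 and 8.23, and Crim1, a transmembrane regulator of growth factors, 8.72, 8.41 and 8.53 against 7.10 to 7.92. The transcripts of the pathway's own coactivators did not separate the groups. Yap1, shown although the naming rule did not pick it, read 8.73, 8.97 and 8.90 against 8.74, 9.07 and 9.49, a difference of -0.19. The differences were 0.45 for Wwtr1, which encodes TAZ, and 0.72 for Tead1. Tead4, left out of the counts by the filter, read 4.47, 4.47 and 4.48 against 2.25, 2.50 and 3.93.

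The promoters of Vgll3 and of 2 called targets are printed because they hold the core letters bound by TEAD factors. The windows run from 250 bases before to the last base before the RefSeq gene start, in GRCm38.p6, and each is read 5′ to 3′ on the strand of the gene. Capitals mark GGAATG or its reverse complement CATTCC. The positions are chr16:65814939-65815188 (plus strand) for Vgll3, chr19:36119845-36120094 (minus) for Ankrd1 and chr3:145649986-145650235 (minus) for Cyr61, which RefSeq names Ccn1.
Vgll3: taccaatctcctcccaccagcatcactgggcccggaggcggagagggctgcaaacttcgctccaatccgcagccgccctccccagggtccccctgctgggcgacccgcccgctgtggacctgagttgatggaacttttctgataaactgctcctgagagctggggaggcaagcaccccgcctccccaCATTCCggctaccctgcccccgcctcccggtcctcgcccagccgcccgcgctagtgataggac
Ankrd1: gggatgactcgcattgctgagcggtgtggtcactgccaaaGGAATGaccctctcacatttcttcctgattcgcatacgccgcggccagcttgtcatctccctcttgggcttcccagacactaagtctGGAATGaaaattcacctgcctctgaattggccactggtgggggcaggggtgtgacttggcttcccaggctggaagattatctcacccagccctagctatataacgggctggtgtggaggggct
Cyr61: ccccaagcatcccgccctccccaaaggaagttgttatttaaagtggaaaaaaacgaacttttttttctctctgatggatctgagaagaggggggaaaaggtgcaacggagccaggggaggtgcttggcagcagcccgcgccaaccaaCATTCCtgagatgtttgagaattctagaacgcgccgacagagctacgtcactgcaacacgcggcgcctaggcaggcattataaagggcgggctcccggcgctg
The match nearest the start begins 63 bases before it in Vgll3, 123 in Ankrd1 and 103 in Cyr61, and Ankrd1 holds another at 210. Over RefSeq windows of 300 bases (250 before an annotated start to 50 after it, where the start used can lie inside the gene, as for Amotl2), searched on both strands, 14.7% of 32851 held GGAATG. It was found in 34 of 174 windows of genes called higher (19.5%) and in 32 of 290 windows of genes called lower. All 4 windows of called list members that were matched held it. A match of these letters is a description of the sequence and does not show binding.

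In the Notch, bile duct and mesenchymal lists, 1 of 12, 2 of 16 and 2 of 18 kept genes were called higher. Over all kept genes, 1.37% were called higher. Wnt4, a Wnt ligand at chr4:137277635-137299501, read 8.05, 7.82 and 8.52 against 3.69, 4.07 and 4.98, a difference of 3.92. Jag1, a Notch ligand, read 8.66, 8.09 and 8.19 against 4.98, 6.02 and 6.65. It was the 1 called gene among 12 kept genes of the Notch list, whose median difference was 0.37. That median was 0.34 within MupHe and -0.14 within IgAkMup. The Notch list means overlapped, at 6.42, 6.58 and 6.41 against 5.64 to 6.51. Of 16 kept bile duct and progenitor genes, 2 were called higher and 0 lower, and 15 of 16 had a positive difference. Sox4, a progenitor factor, was called, with a difference of 1.18. The duct keratin gene Krt19 and the epithelial adhesion gene Epcam were not called, with differences of 0.80 and 1.18, and that of Sox9, a duct transcription factor, was 0.45. The mean of the list was 7.18, 8.13 and 6.77 against 6.27 to 7.09, so IgAkMup HCC 9 lay among the other tumours. In the mesenchymal list of 18 kept genes, the growth factor gene Tgfb2 (6.41, 6.14 and 5.94 against 4.04 to 5.75) was among those called higher. The means of this list overlapped, at 7.68, 7.79 and 7.69 against 7.02 to 7.84. Its median difference was 0.50 within MupHe and -0.18 within IgAkMup. Vim, encoding the filament protein vimentin, and Cdh1, encoding E-cadherin, were not called, with differences of 0.24 and 0.73.

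Among lower genes, the largest difference was that of Cyp2a4, a P450 of steroid metabolism at chr7:26307192-26315088. It read 6.17, 7.14 and 7.84 against 10.62, 12.82 and 14.65, a difference of -5.58. Its NASH range was 8.22 to 11.54, so the median of the 8 stood above NASH liver and the divergent tumours below it. NC livers read 5.26 to 10.90. Cyp2a5 is nearly identical in sequence and read 8.15, 12.28 and 10.87 against 12.48, 13.73 and 14.64, so reads may have been split between the pair and the value of each is uncertain. Both nevertheless separated the 3 tumours from the 8. Of 26 kept P450 genes, 6 were called lower and 0 higher, beside 2.38% lower and 1.37% higher over all kept genes. The median difference was -1.42, and the mean of the list did not overlap (7.38, 7.85 and 7.34 against 7.95 to 10.01). Cyp1a2, a caffeine-metabolising enzyme of the pericentral zone, read 7.79, 7.61 and 5.99 against 8.23, 9.86 and 11.28. Cyp3a25 read 8.80, 8.22 and 8.30 against 9.38, 10.72 and 11.45. Not every P450 was low. The bile acid enzyme gene Cyp7a1 read 9.05, 6.78 and 8.76 against 4.84, 6.37 and 7.66, and was not called.

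Among 19 kept hepatocyte transcription factors, 2 were called lower and 1 higher, beside 2.38% and 1.37% of all kept genes. Nr1i3 encodes CAR, a nuclear receptor that induces drug-metabolising genes, and read 5.31, 6.10 and 5.16 against 7.23, 8.49 and 9.23. Nr0b2 encodes SHP, a repressor in bile acid feedback, and read 5.62, 6.46 and 6.22 against 7.01, 7.96 and 8.43. The mean of the list was 8.59, 8.55 and 8.48 against 8.62 to 9.10, without overlap, and 12 of 19 differences were negative. Single factors differed in direction and size, and Hnf4a differed by -0.01.

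Fatty acid synthesis held more lower genes than any other list. Of 24 kept genes of fatty acid synthesis and lipid droplets, 9 were called lower and 0 higher, beside 2.38% and 1.37% of all kept genes. In this list 23 had a negative difference, and the median was -1.45. Thrsp, a lipogenic nuclear protein gene, read 6.07, 6.48 and 6.48 against 7.71, 9.99 and 11.24. Acacb, a mitochondrial acetyl-CoA carboxylase, read 6.15, 6.46 and 5.14 against 7.09, 8.52 and 9.84. Scd1, the desaturase that makes oleate, read 13.86, 13.70 and 12.17 against 14.02, 16.17 and 16.69. The last of these came near to overlap, as MupHe HCC 3 lay only slightly below the lowest of the 8. Elovl5, a fatty acid elongase, differed by -1.71. Srebf1, the transcription factor gene of the pathway, differed by 0.03, and Fasn, fatty acid synthase, read 10.84, 9.79 and 9.46 against 10.83, 12.30 and 14.37 and overlapped at a single value. Both were named after their values were seen. In fatty acid oxidation, 2 of 22 kept genes were called lower, and the median was -0.51. That median was -0.77 within MupHe and 0.09 within IgAkMup. The list means overlapped (9.78, 10.20 and 9.95 against 9.85 to 11.07). One of the called genes, Acaa1b, a peroxisomal thiolase, read 9.47, 10.78 and 10.02 against 10.98, 12.65 and 13.21.

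All 20 kept genes of cholesterol synthesis had a negative difference, 5 were called lower (2.38% over all kept genes), and the median was -0.73. Hmgcs1, which makes the substrate of HMG-CoA reductase, read 10.01, 9.06 and 9.71 against 11.12, 11.71 and 12.31. Nsdhl, a sterol dehydrogenase, read 7.56, 7.73 and 8.06 against 8.84, 9.43 and 10.01. The differences of Fdps, which makes farnesyl diphosphate, and of the sterol oxidase gene Msmo1 were -1.55 and -1.38. In each of these genes, all 3 tumours were below all 8. The promoter of Hmgcs1 (chr13:119690101-119690350, plus strand, GRCm38.p6, RefSeq) is printed as the example that holds a sterol regulatory element, TCACCCCAC, in capitals, beginning 137 bases before the start.
Hmgcs1: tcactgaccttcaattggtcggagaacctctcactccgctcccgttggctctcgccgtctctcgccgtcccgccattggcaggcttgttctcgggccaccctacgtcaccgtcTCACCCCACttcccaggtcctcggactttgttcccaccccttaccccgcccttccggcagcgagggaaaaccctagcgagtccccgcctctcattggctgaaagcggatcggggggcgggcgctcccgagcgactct
Searched on both strands (reverse complement GTGGGGTGA), 0.551% of the 32851 windows of 300 bases held it, as did 2.07% of windows of genes called lower, 0 of 174 windows of genes called higher and 1 of 6 windows of called cholesterol genes. These are counts of letters only.

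Plasma proteins and acute phase genes were lower in part. Apoa4, an apolipoprotein of triglyceride-rich particles, read 10.24, 10.54 and 10.95 against 13.55, 14.16 and 15.36, a difference of -3.71. Its NASH range was 12.86 to 15.15 and its NC range 10.20 to 12.73. Apoc3 and Apoa2, further apolipoprotein genes, differed by -2.24 and -2.10. In all, 6 of 20 kept secreted hepatocyte genes were called lower, beside 2.38% of all kept genes, with a median of -0.19. Most of the list, Alb included, was not called, but its mean did not overlap (13.39, 13.58 and 13.70 against 13.78 to 14.70). Serpina3k, a kallikrein-binding serpin gene of a multigene family, read 11.56, 10.22 and 9.45 against 11.90, 13.92 and 14.44. Of 22 kept acute phase genes, 5 were called lower and 1 higher (1.37% over all kept genes). The mean of the list was 9.68, 10.18 and 10.02 against 10.46 to 10.98, without overlap. Orm1, encoding a plasma carrier protein, read 9.81, 9.60 and 10.35 against 12.45, 12.58 and 12.92, and Orm2 6.71, 7.24 and 6.48 against 7.46, 9.93 and 11.22. Orm genes are close copies, and the value of each member is uncertain. The called higher gene was Socs3, a feedback inhibitor of cytokine signalling, at 6.88, 7.48 and 7.75 against 5.36 to 6.86.

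Other leading lower genes have varied roles. Serpina12, encoding the adipokine vaspin, read 5.42, 4.89 and 6.32 against 8.80, 9.64 and 10.92. Its NASH range was 5.10 to 6.66, so here the 8 tumours stood above NASH liver and the divergent tumours did not. Ly6d, encoding a surface protein of the Ly6 family, read 6.45, 8.49 and 9.09 against 9.96 to 11.49. Its NASH range was 6.86 to 9.05, so the 8 tumours stood above NASH liver in this gene as well. Hsd17b6, a steroid dehydrogenase, read 5.60, 6.89 and 5.64 against 7.80, 10.43 and 11.47, below its NASH range of 10.66 to 11.77. Wfdc21, Ces3a, Rarres1, Gpc1 and Abcd2 differed by -3.90 to -3.04, and Ces3a, a carboxylesterase with close copies, is uncertain.

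Zone markers are set beside the 2.38% of all kept genes that were called lower. Of 22 kept Wnt and pericentral genes, 4 were called lower and 0 higher, with a median of -1.03. Lect2, a secreted Wnt target, read 5.24, 6.57 and 5.12 against 7.24, 8.07 and 9.58, and Gulo, the last enzyme of vitamin C synthesis, 8.08, 8.81 and 7.50 against 9.34 to 10.63. Glul, glutamine synthetase of the pericentral layer, was not called, at 9.95, 10.55 and 9.62 against 9.64, 11.91 and 13.04. Cyp2e1 was not called either (10.36, 12.18 and 8.96 against 9.84, 12.48 and 14.69), and the Wnt feedback genes Axin2 and Lgr5 differed by -0.42 and -0.51. In periportal genes, 1 of 15 was called, Uroc1, a histidine-breakdown enzyme (8.11, 8.13 and 8.75 against 10.08 to 11.62), and the median was -0.56. The means of both lists overlapped between the groups, at 6.18, 6.87 and 6.17 against 6.76 to 8.28 for pericentral and 10.24, 10.22 and 10.59 against 9.76 to 11.64 for periportal genes. Within MupHe and within IgAkMup the medians were -1.04 and -0.28 for pericentral and -0.58 and 0.51 for periportal genes.

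**Figure D3:**
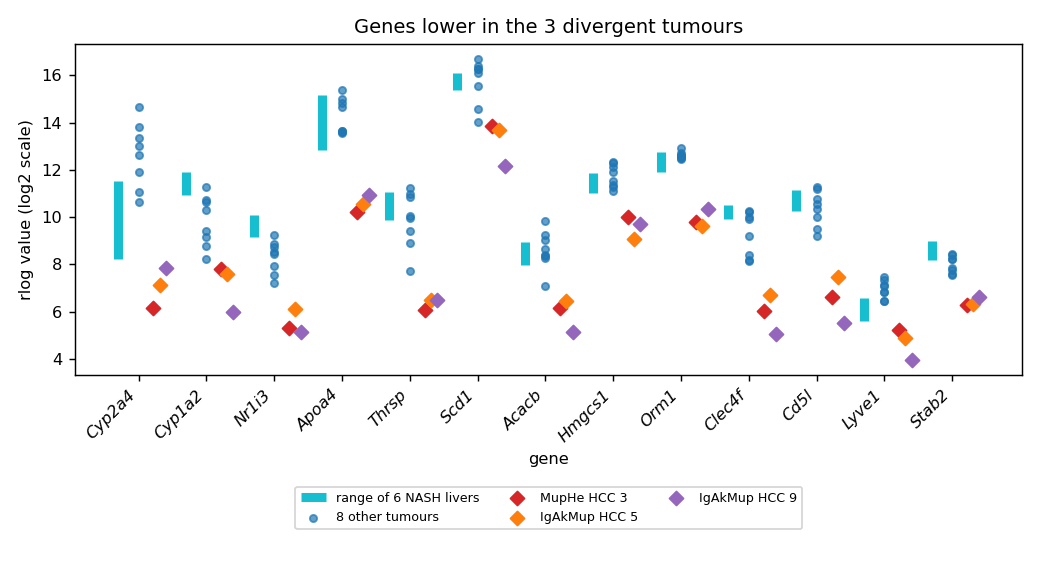
rlog values (log2 scale, vertical) of 13 genes in the 3 divergent tumours (diamonds), the 8 other tumours (blue points) and the range of 6 NASH livers (bars). Cyp2a4 lies at 6.17 to 7.84 in the divergent tumours and at 10.62 to 14.65 in the others.

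Kupffer cell genes were lower in all 3 divergent tumours. Of 12 kept genes, 7 were called lower and 0 higher, beside 2.38% and 1.37% of all kept genes. The median was -1.53, and the mean of the list was 6.11, 6.26 and 5.76 against 6.93 to 8.04. Cd5l, a secreted scavenger protein gene at chr3:87357881-87371074, read 6.64, 7.45 and 5.53 against 9.20, 10.44 and 11.25. Clec4f, a lectin made by Kupffer cells, read 6.01, 6.73 and 5.08 against 8.15, 9.57 and 10.26. Vsig4, a complement receptor of resident macrophages, read 5.35, 5.69 and 4.37 against 6.71, 7.86 and 8.90. The defining markers did not all follow. Timd4, Cd163 and Marco, receptors of resident macrophages, were not called and differed by -0.28, -0.27 and -0.41. C6, a complement gene that also stands on the list of male-biased liver genes, was among the 7. In bulk tissue, fewer cells of a type and less RNA per cell cannot be told apart.

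Genes of recruited macrophages did not share this direction. Of 14 kept genes, 3 were called higher and 1 lower, beside 1.37% and 2.38% of all kept genes. The median was 0.12, and the list means overlapped (6.92, 7.14 and 6.89 against 6.33 to 7.52). Cx3cr1, the fractalkine receptor, read 8.18, 7.31 and 7.69 against 5.33, 6.49 and 7.20. Ccr2, the receptor that brings monocytes into tissue, read 7.44, 7.11 and 7.28 against 5.67 to 6.63, and Ms4a7, a macrophage membrane protein gene, 7.75, 7.10 and 7.25 against 5.68 to 6.89. The called lower gene was Cd9, a tetraspanin found on many cells. The pan-leukocyte gene Ptprc differed by 0.62 and was not called.

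Of 15 kept endothelial genes, 3 were called lower and 0 higher, beside 2.38% and 1.37% of all kept genes. The median difference was 0.06, and the list means overlapped (7.32, 7.23 and 7.01 against 7.07 to 7.87). Lyve1, a hyaluronan receptor, read 5.21, 4.90 and 3.98 against 6.45, 6.96 and 7.48, and Stab2, a scavenger receptor, 6.28, 6.33 and 6.60 against 7.56, 8.04 and 8.45. The lectin gene Clec4g read 5.79, 5.60 and 4.74 against 7.14 to 8.96. All 3 are known from sinusoidal endothelium. Pecam1 and Cdh5, general endothelial adhesion genes named after their values were seen, each differed by 0.39. Of 19 kept stellate and matrix genes, 2 were lower, and the list mean was 7.80, 7.92 and 6.63 against 7.46 to 8.78. Lrat, which stores retinol in quiescent stellate cells, read 5.20, 4.83 and 4.25 against 5.53 to 7.65. Dcn, encoding the matrix protein decorin, read 9.67, 8.83 and 6.05 against 9.79 to 10.85, so much of its difference lay in IgAkMup HCC 9. The part of cell composition in the other differences of these tumours was not tested.

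**Figure D4:**
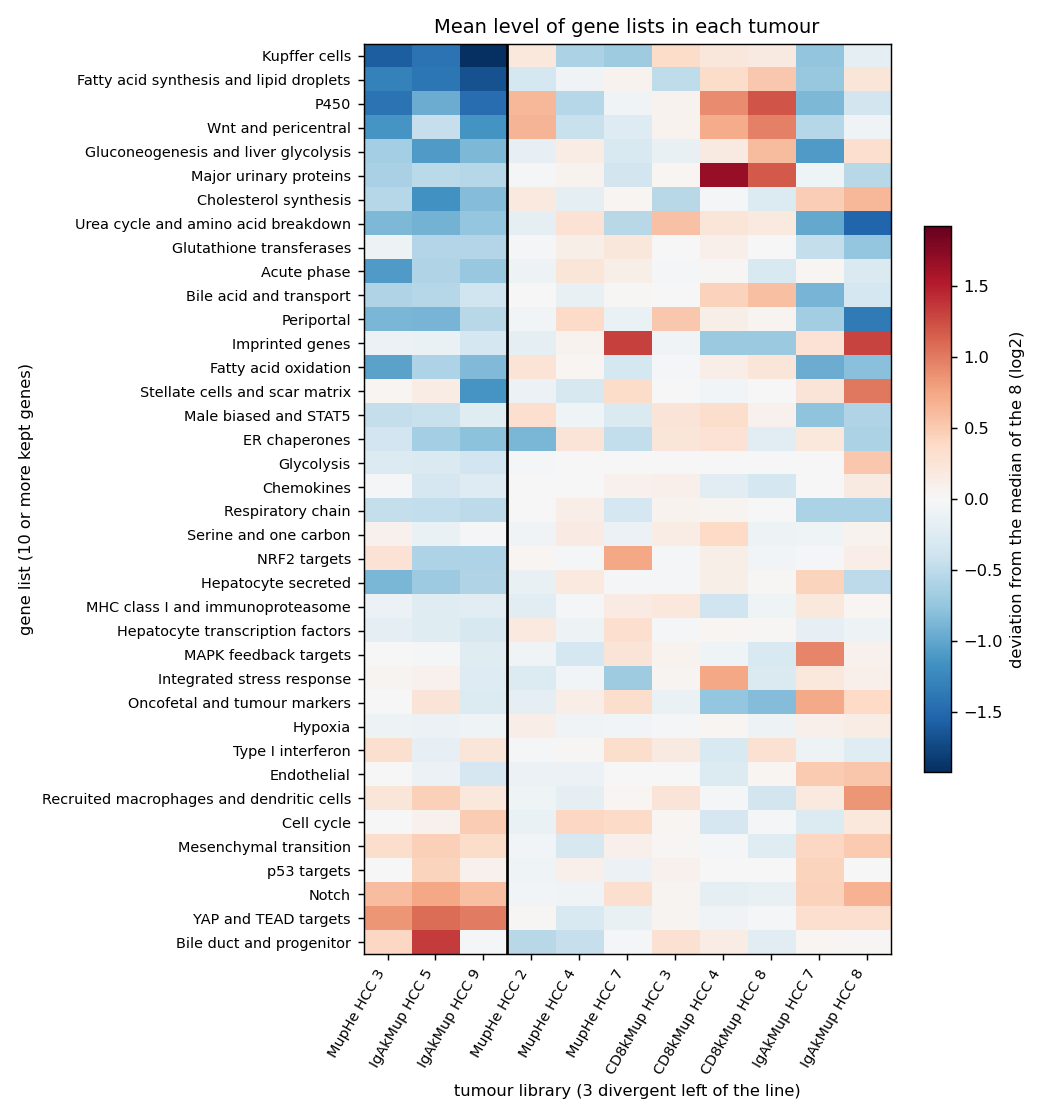
Deviation of the mean rlog value of each gene list (rows, lists with 10 or more kept genes) from the median of the 8 other tumours (colour, log2), by tumour (columns), with the divergent tumours left of the line. Kupffer, lipid synthesis and P450 lists are low and YAP and TEAD targets high in the 3 divergent tumours, and the list means of these do not overlap with those of the other 8.

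Some lists had no called member, from which nothing is read, since at 1.37% and 2.38% of all kept genes lists of this size would hold few calls or none. None of 24 kept cell cycle genes was called (median 0.14), and Mki67, a marker of dividing cells, read 6.88, 7.28 and 8.34 against 6.38 to 7.65. No called gene was found among 6 kept T and natural killer cell genes (median 0.47), 4 B and plasma cell genes (-0.15), 3 neutrophil genes (0.03), 13 MAPK feedback genes (-0.15) or 8 MHC class II genes (0.71). Of 20 kept interferon genes only Ifit2, an antiviral RNA-binding protein gene, was called (8.42, 7.70 and 8.40 against 6.15 to 7.50). Over all 50 lists together, 19 of 649 kept genes were called higher and 68 lower.

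The divergent tumours were close to each other. Pairs among them differed by at least 1 in 3.10% to 4.15% of kept genes. Pairs of a divergent and another tumour (24 pairs) differed in 7.75% to 13.7%, with a median of 10.4%. The 28 pairs among the other tumours ranged from 1.10% to 12.6%, with a median of 6.45%, so the 8 were more mixed than the 3. The rule selected for this closeness.

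Each divergent tumour also had genes of its own, at least 1 beyond all 10 other tumours. MupHe HCC 3 was lowest by that margin in 23 genes and highest in 6. The polymeric immunoglobulin receptor gene Pigr read 9.09 there, with 13.90 and 13.32 in the other divergent tumours and 11.77 to 14.27 in the 8. Rad51b, a gene of recombination repair, read 5.45 there against 7.94 and 7.85, and Serpina7, encoding thyroxine-binding globulin, 6.09 against 11.27 and 8.37. IgAkMup HCC 5 was highest in 32 genes and lowest in 2. It had 15.24 of Spp1, encoding osteopontin, against 12.48 and 12.46 in the other divergent tumours, and 8.58 of Sftpd, encoding a surfactant lectin, against 5.65 and 5.00. The insulin-like growth factor binding protein gene Igfbp6 read 8.73 there against 5.65 and 4.57. IgAkMup HCC 9 was lowest in 27 genes and highest in 6. Beside the low Dcn, it had 4.56 of Lum, a further matrix proteoglycan, against 7.24 and 6.71. It had the highest Lck (6.87 against 4.62 and 4.41) and Tcf7 (7.74 against 5.33 and 4.81), a kinase and a transcription factor of T cells.

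Because 2 genotypes held both kinds of tumour, the contrast could be read within each. In IgAkMup alone, tumours 5 and 9 against 7 and 8, the call rule gave 245 higher (1.99%) and 486 lower genes (3.94%), and 115 of the 169 higher and 209 of the 294 lower genes were among them. Within MupHe, tumour 3 minus the mean of the other 3 had the same direction with a size of at least 1 in 142 of the 169 and 245 of the 294. A call without overlap fixes the direction within each genotype. The call also asks for means at least 1 apart over these same tumours, so the size was selected as well. These counts and sizes are therefore descriptions only. The difference of Vgll3 was 7.10 within MupHe and 5.38 within IgAkMup, that of Ankrd1 2.95 and 3.63, and that of Cyp2a4 -6.45 and -5.78. Across all kept genes, the differences within MupHe and within IgAkMup had Pearson r = 0.558 and Spearman rho = 0.462. These share no library, but the same rule chose the tumours on both sides, genes are not independent replicates, and no p is given. Median differences within MupHe and within IgAkMup were -1.38 and -1.14 for Kupffer genes, -1.28 and -1.23 for fatty acid synthesis and 0.73 and 0.44 for YAP and TEAD targets. Amino acid breakdown genes went opposite ways, -0.56 and 0.51, and this difference was not tested.

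**Figure D5:**
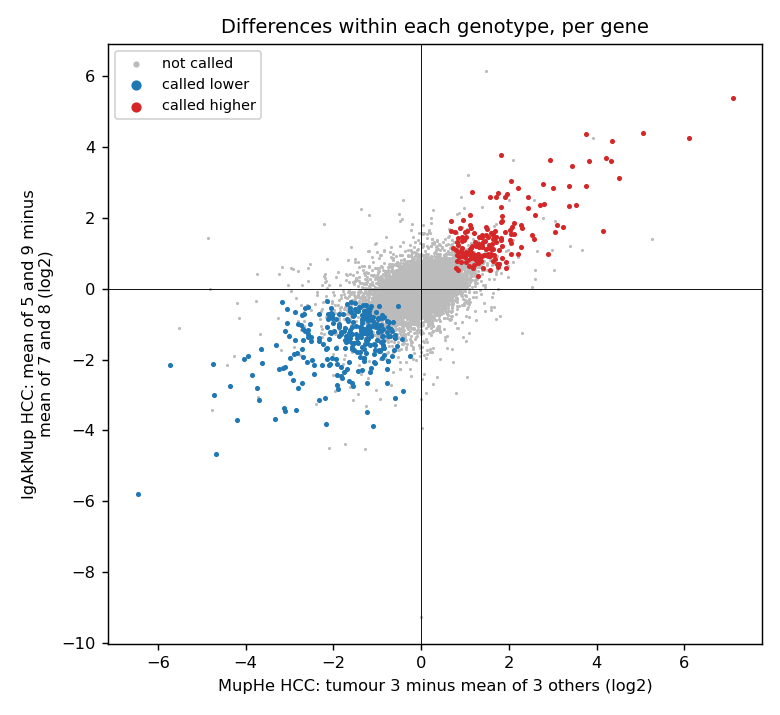
Difference per gene within MupHe (tumour 3 minus the mean of 3 others, horizontal, log2) and within IgAkMup (mean of 5 and 9 minus mean of 7 and 8, vertical, log2), with 1 point per kept gene. The 169 genes called higher (red) and the 294 called lower (blue) lie in the upper right and lower left, as a call without overlap requires.

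Genotype was not used to choose the tumours and could be tested. Divergent tumours were 1 of 4 MupHe, 2 of 4 IgAkMup and 0 of 3 CD8kMup. The exact test of this table (Fisher-Freeman-Halton, two-sided) gave p = 0.709, and the smallest p such a table allows is 0.00606. IgAkMup against MupHe gave p = 1 in an exact test. No difference between genotypes was detectable with 11 tumours, which does not show that the genotypes are alike. Both tests count the 11 tumours as independent, though the labels do not say that they came from separate animals.

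By position, 12303 of 12337 kept genes (99.7%) were matched to a chromosome. Chromosome 14 had the highest share of lower genes, 21 of 409 (5.13%), with 2 higher. Its genes deviated by a median of -0.25, -0.27 and -0.29 in the divergent tumours, and by -0.17 to 0.43 in the other 8. Chromosome 12 followed with 16 of 421 lower and 1 higher. Single tumours showed shifts of their own, with a median of -0.40 over chromosome X in MupHe HCC 3 and -0.41 over chromosome 13 in IgAkMup HCC 5. Shifts as large were seen among the 8, up to 0.43 for chromosome 14 in MupHe HCC 4. DNA copy number was not analysed here.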

How the data were processed

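PolyA RNA of liver and liver tumour was sequenced after library preparation with the TruSeq Stranded mRNA chemistry (input 100 ng), per the labels' protocols. The authors deposited rlog values, regularized log2 values, for 24511 genes and 41 libraries. Such values shrink weakly expressed genes toward their mean, so their differences can be understated. STAR, Cuffdiff, HOMER, DESeq2 and mm10 are named, without versions or roles, per the submitters' processing notes. Depth is unknown because no counts were used, and no counting interval is given. The names of 6 columns fit more than 1 group, and these columns were not used. Tumour columns were matched to a group by name.

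From these values, 12337 genes whose mean over 35 libraries reached 3 were kept. Principal components were centred and not scaled. A gene was called where the groups did not overlap and the means differed by at least 1. No test compared the 3 tumours with the 8, and the genotype table is the only test. The tumours, gene lists and rules were chosen with earlier results of these data known. Named genes were the 15 largest called differences in each direction (multigene families at most 2 each, predicted genes left out), the leading members of each list, a set of liver markers, the 5 genes most particular to each divergent tumour, and the 5 with the widest range over the 8. Genes outside the rule are marked where they appear, except Crim1, Socs3, Sox4, Tead1 and Wwtr1, list members chosen after their values were seen, and Timd4, Cd163 and Marco, which are set cell type markers. Some genes that the rule picks are not reported here. Alternatives changed the filter, the size of difference, the scaling and the tumours included. The code of the calls was run on simulated data with independent noise, equal in all genes, and without selection of tumours. Such a run checks the code and not the calls in these data. Python 3.11.15, pandas 2.3.3, numpy 2.4.6, scipy 1.17.1 and matplotlib 3.10.9 were used. Promoter windows and gene positions are from RefSeq, GRCm38.p6.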

Additional observations from a re-analysis of the deposited data

Results flagged for a closer look

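In the 8 other tumours, 13 of 168 named genes had 1 tumour far from the rest by Dixon's criterion (a gap large against the range of the 8), where chance alone flags about 1 in 20 groups. That rate does not hold here, because most named genes were picked by their values in these same tumours. Lmo1 and Gpc3 were also among those named for their wide range over the 8. The 13 are thus a description and are not weighed against chance. IgAkMup HCC 7 accounted for 7 of the 13. It was highest for the tumour markers Gpc3 (11.27, next 7.01) and Afp (9.85, next 6.29), for the YAP target Ankrd1 (5.22, next 3.99), for the MAPK feedback gene Spry4 (7.14, next 6.01) and for the nuclear RNA Malat1 (11.003, next 10.03). It was lowest for the carbonic anhydrase gene Car3 (9.72, next 12.34) and the complement gene C6 (8.68, next 9.73). This tumour was also the nearest of the 8 to the divergent tumours on the second principal component.

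IgAkMup HCC 8 accounted for 4. Lmo1, encoding a LIM-domain transcription cofactor, read 20.93 there and at most 3.68 in the other 7. The value of 20.93 is the highest of any gene in the 35 libraries used. The same tumour was highest for the pentose phosphate enzyme gene Tkt (12.62, next 11.54), the T cell kinase gene Lck (4.63, next 4.15) and the neutrophil receptor gene Csf3r (5.66, next 5.00). MupHe HCC 2 was lowest for Spp1 (8.83, next 11.06), and CD8kMup HCC 8 was lowest for Ly6d (9.96, next 10.89).

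For 4 genes the divergent tumours lay on opposite sides of the others in the 2 genotypes, without overlap in either, and the difference was not tested. Pigr differed by 1.44 within IgAkMup and -4.85 within MupHe, Otc of the urea cycle by 0.61 and -3.18, Rad51b by 0.21 and -2.57, and the B cell receptor gene Cd79b by -0.43 and 0.31. Within MupHe each of these rests on the single tumour 3.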

How the results depend on the processing

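The counts of higher and lower genes, 169 and 294, depended most on the size of difference. With at least 0.5 they were 473 and 658, with at least 2 they were 37 and 71, and with overlap allowed 255 and 510. MupHe tumours alone gave 356 and 687, where 1 tumour stands against 3 and overlap is easily avoided. IgAkMup alone gave 245 and 486, and a mean of at least 5 gave 107 and 266. The other settings stayed within 1.5 times: no filter (203 and 299), median centring (175 and 292), medians in place of means (171 and 271) and CD8kMup left out (184 and 336). Quantile scaling gave 226 and 278, which moved the share of higher genes among calls from 36.5% to 44.8%. Leaving out each tumour in turn gave 166 to 237 higher and 291 to 409 lower. Of 2856 recomputed differences of the 168 named genes, 163 moved by more than the SD of the 8 other tumours. Reversal was looked for only in the 90 called genes, and 0 reversed. Groups without overlap keep their sign whenever tumours are left out, so little is read from this. Some uncalled genes did change sign, such as Pigr, at -1.20 over all tumours and 1.44 within IgAkMup. No paired analysis was possible because the tumour columns carry no number shared with the labels and no test was run between the groups. Unknown depth limits weakly expressed genes, whose shrunken differences are the least certain.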

Other observations

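The neighbours of Lmo1 (chr7:109138565-109175207, GRCm38.p6) were read in IgAkMup HCC 8 after its value was seen. Eif3f, the nearest kept gene before it, read 9.55 there against 9.20 to 10.05 in the other 10 tumours, and Rpl27a, the nearest after it, 6.95 against 6.62 to 7.59. The high value was thus not shared by the kept genes on either side. In the 3 divergent tumours Lmo1 read 2.68, 2.35 and 2.70.

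The tumours that were not divergent differed among themselves in an imprinted gene, H19, which ran from 7.31 to 14.56 over the 8. Genes at least 1 beyond all other tumours were most numerous in IgAkMup HCC 8 (46 above, 16 below) and IgAkMup HCC 7 (38 above, 14 below), ahead of each divergent tumour.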
